A study of Mus musculus with 73 samples.

Results

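The nuclear genes for the 5 complexes of oxidative phosphorylation were followed in 8 RNA-seq libraries of mouse embryos. Members were the rows of the gene table whose symbol named a subunit of complex I (Nduf), complex II (Sdh), complex III (Uqcr), complex IV (Cox4 to Cox8) or complex V (Atp5). Symbols ending in -ps (a mark of pseudogenes) or in Rik were left out. This gave 86 of 25220 genes. Of these, 75 encode structural subunits found in most cells: 35 of complex I, 4 of complex II, 8 of complex III, 11 of complex IV (with Ndufa4, now known as a complex IV subunit) and 17 of complex V. The other members were 8 tissue-restricted isoforms of complex IV subunits, the supercomplex assembly factor Cox7a2l, and Ndufb4c and Ndufa11b, which are copies of Ndufb4 and Ndufa11. Ndufa11b is annotated in RefSeq as a transcribed pseudogene but stays in the counts of members.

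The study as a whole is about histone H3.3 in early mouse development, and all 8 RNA libraries came from embryos of the hybrid C57BL/6 / C3H strain cultured in KSOM. There were 3 libraries of p150DN 8-cell embryos, 2 of EGFP blastocysts and 3 of EGFP 8-cell embryos. Chaf1a encodes p150, the biggest of the subunits of CAF-1, which places histones on newly copied DNA, and p150DN is a dominant-negative form of p150. EGFP, a fluorescent protein, was the control at both stages. For 2-cell chromatin samples of the series the labels describe mRNA for EGFP or an EGFP-p150DN fusion, injected into the cytoplasm of fertilized eggs, but they give no such step for the RNA libraries. Chaf1a RNA stood at 166, 254 and 238 FPKM (fragments per kilobase, scaled to the depth of the library) in p150DN 8-cell libraries, 26.5 and 27.2 in EGFP blastocyst libraries and 27.7, 30.2 and 28.8 in EGFP 8-cell libraries. Endogenous Chaf1a and RNA of the p150DN construct are not separated in this value. The labels do not say that replicates were separate litters or cultures, so every p below refers to the spread of these libraries alone, and that spread may be technical.

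Oxidative phosphorylation passes electrons from NADH (complex I) and succinate (complex II) through ubiquinone to complex III, and from there through cytochrome c to complex IV, which reduces oxygen. Complexes I, III and IV pump protons across the inner mitochondrial membrane, and complex V, the ATP synthase, lets them return to make ATP. Complex II is made from nuclear genes alone, whereas each of the others also holds mitochondrially encoded subunits. In the mouse, cleavage-stage embryos depend on pyruvate and have rounded mitochondria with few cristae, while oxygen use rises as the blastocyst forms. The transcription factors NRF1, GABPA (an ETS factor) and YY1 are known for binding promoters of these nuclear genes.

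Motif letters of these 3 factors were looked for in the promoters, from 250 bases before to 50 after the gene start, in RefSeq sequences of build GRCm38.p6. Of the 86 members, 68 had an entry. The NRF1 letters (GCGC, any base, then TGCGC), on either strand, were in 17 of the 68 (25%), against 12.1% of the 9017 tested genes with an entry and 5.19% of all 27025 genes with one. The ETS letters CCGGAAG were in 17 (25%), against 21.5% of tested genes and 9.93% of all genes. The YY1 letters AAGATGG were in 11 (16.2%), against 8.81% of tested genes and 7.28% of all genes. No matches of different motifs overlapped in these promoters. A match of letters is a description and not a bound site.

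The 100 bases just before the gene start are shown for 6 members with NRF1 letters there, chosen because their genes recur in the results below, with Ndufb4 shown for its repeated match. Sequences are printed 5′ to 3′ on the strand of the gene, and capitals mark the NRF1 letters.
Sdha (chr13:74350241-74350340, minus strand): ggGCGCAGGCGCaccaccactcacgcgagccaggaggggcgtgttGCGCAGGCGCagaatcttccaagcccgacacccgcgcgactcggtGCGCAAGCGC
Sdhd (chr9:50603850-50603949, minus strand): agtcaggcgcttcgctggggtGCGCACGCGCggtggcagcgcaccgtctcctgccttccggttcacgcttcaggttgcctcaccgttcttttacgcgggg
Ndufa5 (chr6:24527691-24527790, minus strand): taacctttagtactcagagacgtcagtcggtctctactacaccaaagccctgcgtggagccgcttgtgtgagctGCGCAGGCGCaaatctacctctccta
Ndufs6 (chr13:73328483-73328582, minus strand): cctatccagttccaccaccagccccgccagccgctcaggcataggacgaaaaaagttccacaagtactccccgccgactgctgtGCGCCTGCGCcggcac
Ndufb4 (chr16:37654369-37654468, minus strand): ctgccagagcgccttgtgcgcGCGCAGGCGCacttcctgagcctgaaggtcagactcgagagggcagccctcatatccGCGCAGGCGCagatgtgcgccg
Atp5g2 (chr15:102671048-102671147, minus strand): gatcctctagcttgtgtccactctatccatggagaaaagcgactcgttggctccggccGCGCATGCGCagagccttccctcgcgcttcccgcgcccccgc
Sdha, the flavoprotein subunit of complex II, carried 3 matches in this window and the Sdhd window, for a membrane anchor of the same complex, carried 1. Of the members with NRF1 letters, 7 of 17 were higher in p150DN 8-cell embryos than in EGFP 8-cell embryos by the test described next, and so were 30 of the 50 tested members with an entry and no match. Over all genes tested in that comparison, 24.6% were higher. For EGFP blastocysts against EGFP 8-cell embryos the member counts were 16 of 17 with the letters and 42 of 50 without, against 42.6% of all genes tested.

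The 3 groups were compared in pairs with limma on log2(FPKM + 1), over all genes of at least 1 FPKM in 3 libraries (2 where blastocysts were involved). A gene was called at a Benjamini-Hochberg adjusted p below 0.05 over all genes tested, and each fold change is given on that scale, where the added 1 makes the change of a weakly expressed gene look smaller. The 3 comparisons share libraries in pairs, so their fold changes are not independent of each other. All 75 structural genes passed the filter on low values in every comparison. Cox6a2, Cox8b, Cox8c and Ndufa4l2 passed it in none, and Ndufa11b missed it for blastocysts against 8-cell embryos.

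In p150DN 8-cell embryos the nuclear genes of the respiratory chain were often higher than in EGFP 8-cell embryos, in numbers that depended on the scaling and on single libraries. Of 82 members tested, 44 rose and 1 (Cox4i2) fell, and 37 were not called. The 44 include Ndufa11b, at 1.86, 1.36 and 1.83 FPKM in p150DN and 0.73, 0.37 and 0.98 in EGFP 8-cell libraries. It passed the filter only through the p150DN libraries, where it was high, so its rise carries no weight. Its call held under 3 of 14 alternatives. Over all 11730 genes tested in this comparison, 24.6% rose and 9.68% fell. In 49 members, Ndufa11b among them, every p150DN library lay above every EGFP 8-cell library, against 34.3% of all genes. The median log2 fold change was 0.51 over the members and 0.19 over all genes tested. Of the structural genes, 21 of 35 in complex I, 3 of 4 in complex II, 7 of 8 in complex III, 6 of 11 in complex IV and 4 of 17 in complex V rose, and none fell. The share in complex V lay near that of all genes. The median log2 fold changes were 0.61 for complex I, 0.82 for complex II, 0.52 for complex III, 0.43 for complex IV and 0.30 for complex V.

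The scaling of the libraries set how many of these calls were made. With median-of-ratios scaling the median of all genes moved to -0.06, that of the members to 0.22, and the members called higher fell to 15 of 82 (18.3%, against 14.9% of all genes). Under that scaling no structural gene of complex III was called and complex V had a median of 0.01, with Atp5d its 1 called gene. The distance between the member median and the median of all genes was 0.32 as deposited, 0.28 with median-of-ratios scaling and 0.51 with quantile normalization, and no called member changed sign under either. The count of members called higher was 28 without p150DN replicate 3 and 28 without EGFP 8-cell replicate 1. By complex, leaving out p150DN replicate 3 gave 12 calls in complex I and 3 in complex III, leaving out p150DN replicate 1 or EGFP 8-cell replicate 1 gave 3 in complex III, leaving out EGFP 8-cell replicate 1 also gave 14 in complex I and 4 in complex IV, leaving out EGFP 8-cell replicate 2 gave 4 in complex III, and leaving out p150DN replicate 2 gave 9 in complex V. Called under all 15 alternatives were 13 members, among them Ndufa5, Ndufa12, Ndufb6, Ndufb9, Ndufs6, Ndufv3, Cox5a, Cox6b2, Cox7a1, Cox7b, Ndufa4 and Atp5d.

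Across the stages of EGFP embryos the members rose almost as a whole. Of 81 tested for EGFP blastocysts against EGFP 8-cell embryos, 71 rose and 1 (Cox4i2) fell. Cox4i2 was below 1 FPKM in both blastocyst libraries and passed the filter only through the EGFP 8-cell libraries, where it was high. Over all 12199 genes tested in this comparison, 42.6% rose and 24.9% fell. Both blastocyst libraries lay above every 8-cell library in 74 members, against 49.3% of all genes. The median log2 fold change was 0.91 over the members and 0.28 over all genes. Among structural genes, 34 of 35 rose in complex I, 4 of 4 in complex II, 8 of 8 in complex III, 8 of 11 in complex IV and 14 of 17 in complex V. Complex II had the highest median at 2.03, followed by 1.17 for complex III, 0.94 for complex I, 0.71 for complex V and 0.69 for complex IV. Median-of-ratios scaling kept 66 members higher, with a member median of 0.69 and a median of all genes of 0.09.

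**Figure D1:**
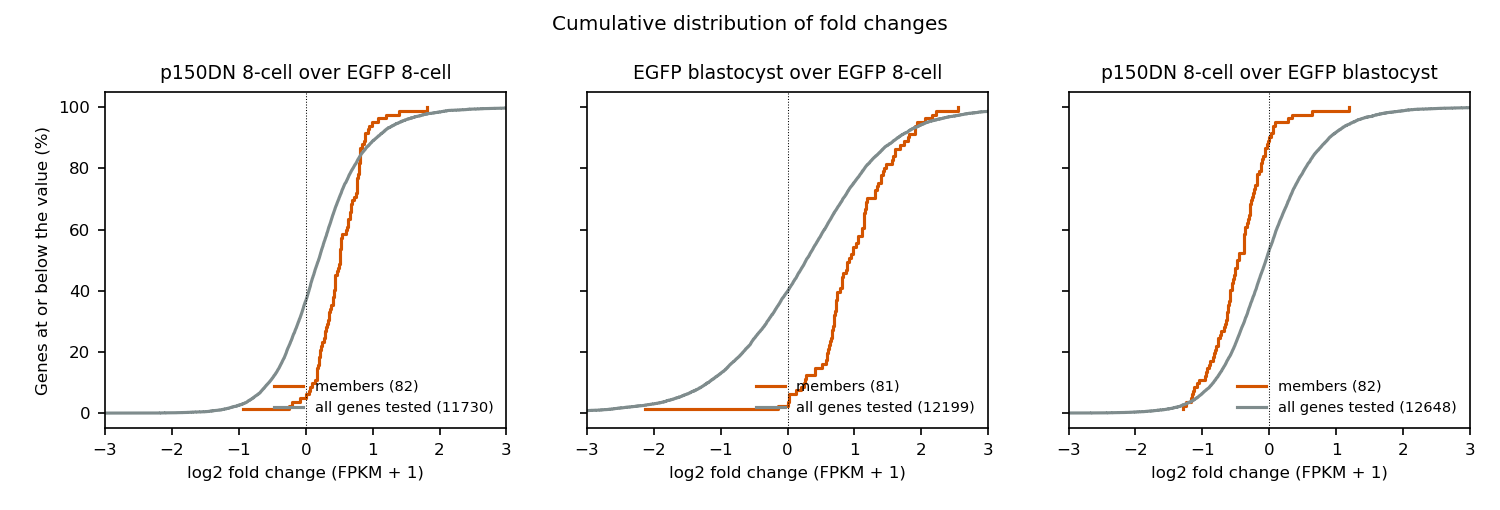
Cumulative percent of genes (y axis) at or below each log2 fold change on the log2(FPKM + 1) scale (x axis), for the members (orange) and for all genes tested (grey), in the 3 comparisons. The member curves lie to the right of all genes for p150DN 8-cell over EGFP 8-cell (medians 0.51 and 0.19) and EGFP blastocyst over EGFP 8-cell (0.91 and 0.28), and to the left for p150DN 8-cell over EGFP blastocyst (-0.47 and -0.05).

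Set directly against EGFP blastocysts, p150DN 8-cell embryos had lower levels of many members. Of 82 tested, 2 were higher (Cox6b2 and Cox4i2) and 34 were lower. Cox4i2, below 1 FPKM in both blastocyst libraries, passed the filter here only through the p150DN libraries, where it was high. Over all 12648 genes tested in this comparison, 11.9% were higher and 14.2% lower. Every p150DN library lay below both blastocyst libraries in 61 members, against 33.8% of all genes. The median log2 fold change was -0.47 over the members and -0.05 over all genes. Lower structural genes numbered 15 of 35 in complex I, 4 of 4 in complex II, 6 of 8 in complex III, 2 of 11 in complex IV and 7 of 17 in complex V. With only 2 blastocyst libraries these calls were fragile. Without blastocyst replicate 1 limma called 0 members in either direction (2 higher and 27 lower at an unadjusted p below 0.05), and without blastocyst replicate 2 it also called 0 (1 higher and 32 lower unadjusted), while voom on recovered fragments with both libraries called 1 higher and 31 lower. Over all genes, calls then numbered 97 higher and 19 lower without replicate 1, and 65 higher and 14 lower without replicate 2, against 1500 and 1801 with both, so the loss was not particular to the members. In those fits the single blastocyst library was assumed to vary like the p150DN libraries. Without p150DN replicate 2 or replicate 3 the members called higher numbered 1 in each case.

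**Figure D2:**
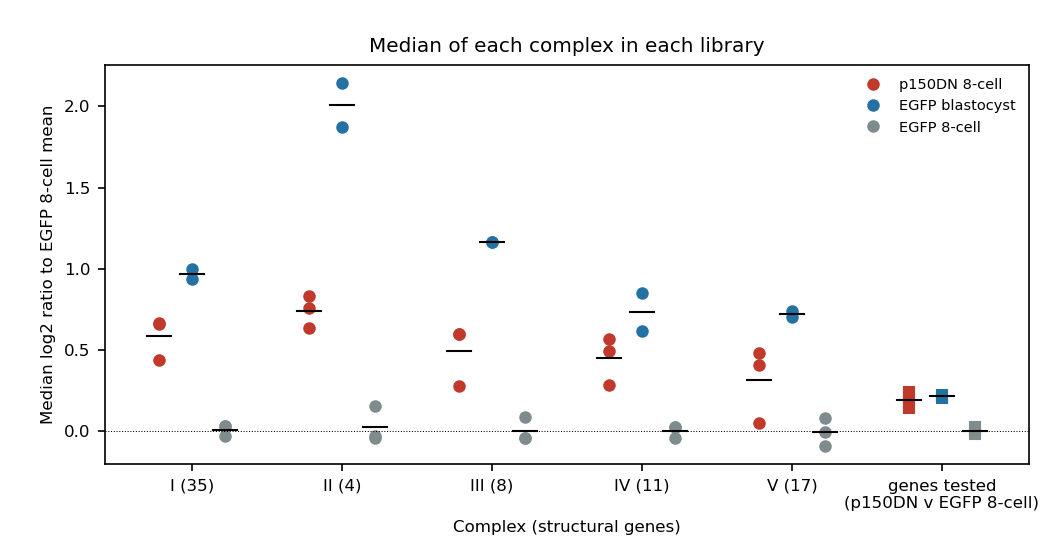
Median log2 ratio to the EGFP 8-cell mean (y axis, log2(FPKM + 1) scale) over the structural genes of each complex (x axis, number of genes in brackets), 1 point per library, with the group mean as a line; squares give the genes tested in p150DN against EGFP 8-cell embryos. p150DN libraries lie between EGFP 8-cell and blastocyst libraries in complexes I to IV, while in complex V p150DN replicate 2, at 0.05, lies within the EGFP 8-cell range, whose highest library is at 0.08.

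Levels per length, averaged over the 3 group means, spanned 8.71-fold within complex I, 2.63-fold within complex II, 3.43-fold within complex III, 22.8-fold within complex IV and 25.8-fold within complex V. Cox6c was the highest structural gene of all, followed by Atp5b, the catalytic beta subunit of the ATP synthase. The median gene of each complex stood at 33.7 FPKM for complex I, 17.3 for II, 81.5 for III, 87.0 for IV and 105 for V in p150DN 8-cell embryos. In EGFP blastocysts these medians were 50.1, 36.5, 119, 109 and 143 FPKM, and in EGFP 8-cell embryos 20.4, 8.97, 52.6, 76.4 and 70.5 FPKM. Complex II genes had the lowest median level in all 3 groups.

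**Figure D3:**
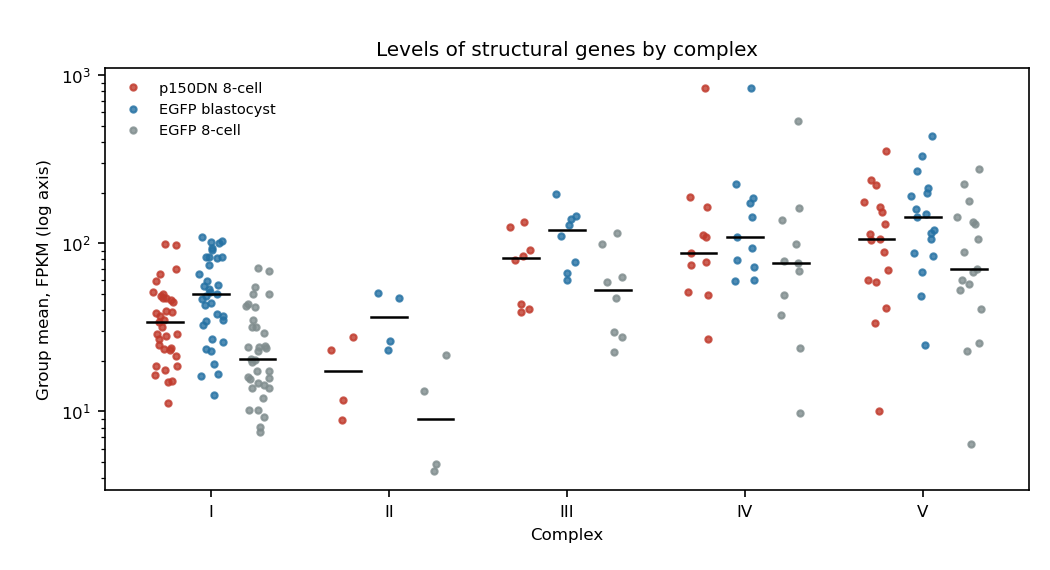
Mean FPKM of each structural gene (y axis, log scale) by complex (x axis) in p150DN 8-cell embryos, EGFP blastocysts and EGFP 8-cell embryos; 1 point per gene, with the median as a line. Complex II has the lowest median in each group, and the single high point of complex IV is Cox6c.

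Summed over the 75 structural genes, levels were 5923 ± 534.8 FPKM in p150DN 8-cell embryos (SD, n = 3), 7768 ± 159.1 in EGFP blastocysts (SD, n = 2) and 4387 ± 186.5 in EGFP 8-cell embryos (SD, n = 3). These sums made up 1.31% to 1.48% of all FPKM in p150DN libraries, 1.69% to 1.75% in blastocyst libraries and 1.09% to 1.13% in EGFP 8-cell libraries, with no overlap between groups. FPKM is scaled to the fragments of each library, so a change in RNA per embryo cannot be seen. The FPKM of all genes summed to 405453 to 426297 in p150DN, 451319 to 452896 in blastocyst and 381865 to 401470 in EGFP 8-cell libraries. In bulk embryos, fewer cells of a type and less RNA per cell cannot be told apart.

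Complex II, succinate dehydrogenase, joins the citric acid cycle to the chain, and 4 of its 4 subunits rose in blastocysts. Sdhc, a membrane anchor (chr1:171129157-171150640), stood at 16.6, 9.37 and 9.06 FPKM in p150DN 8-cell, 24.8 and 27.3 in EGFP blastocyst and 5.34, 5.37 and 3.82 in EGFP 8-cell libraries. The 3 groups did not overlap, and p150DN replicate 1 stood above its replicates. Its log2 fold change over EGFP 8-cell embryos was 1.08 ± 0.25 (SE) in p150DN 8-cell embryos (limma adjusted p = 0.0108; 0.059 with quantile normalization) and 2.22 ± 0.18 in blastocysts (limma adjusted p = 7.57e-05). Sdhd, the other anchor (chr9:50596340-50603849), had 7.41, 10.3 and 8.82 FPKM in p150DN 8-cell, 19.6 and 26.9 in blastocyst and 3.51, 4.81 and 4.91 in EGFP 8-cell libraries, again without overlap. Its changes over EGFP 8-cell embryos were 0.86 ± 0.19 and 2.16 ± 0.20 on the log2 scale in p150DN 8-cell embryos and blastocysts (SE).

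The iron-sulfur subunit Sdhb (chr4:140961271-140979198) had 20.3, 21 and 27.7 FPKM in p150DN 8-cell, 47.2 and 54.4 in blastocyst and 10.9, 11.2 and 17.2 in EGFP 8-cell libraries. All p150DN libraries lay between the blastocyst and EGFP 8-cell libraries. The p150DN call for Sdhb was lost without p150DN replicate 3 and without EGFP 8-cell replicate 1 or 2 (limma adjusted p = 0.0758, 0.0765 and 0.0635), and also with median-of-ratios scaling. Sdha, the catalytic flavoprotein (chr13:74322255-74350240), had 31.2, 20.8 and 30.9 FPKM in p150DN 8-cell, 47.1 and 47 in blastocyst and 23.8, 16.8 and 24 in EGFP 8-cell libraries. Its p150DN replicate 2 fell within the EGFP 8-cell range, and its p150DN difference of 0.34 ± 0.20 (SE) was not called (limma adjusted p = 0.223). The rise of Sdha in blastocysts was 1.11 ± 0.17 (SE; limma adjusted p = 0.00119).

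**Figure D4:**
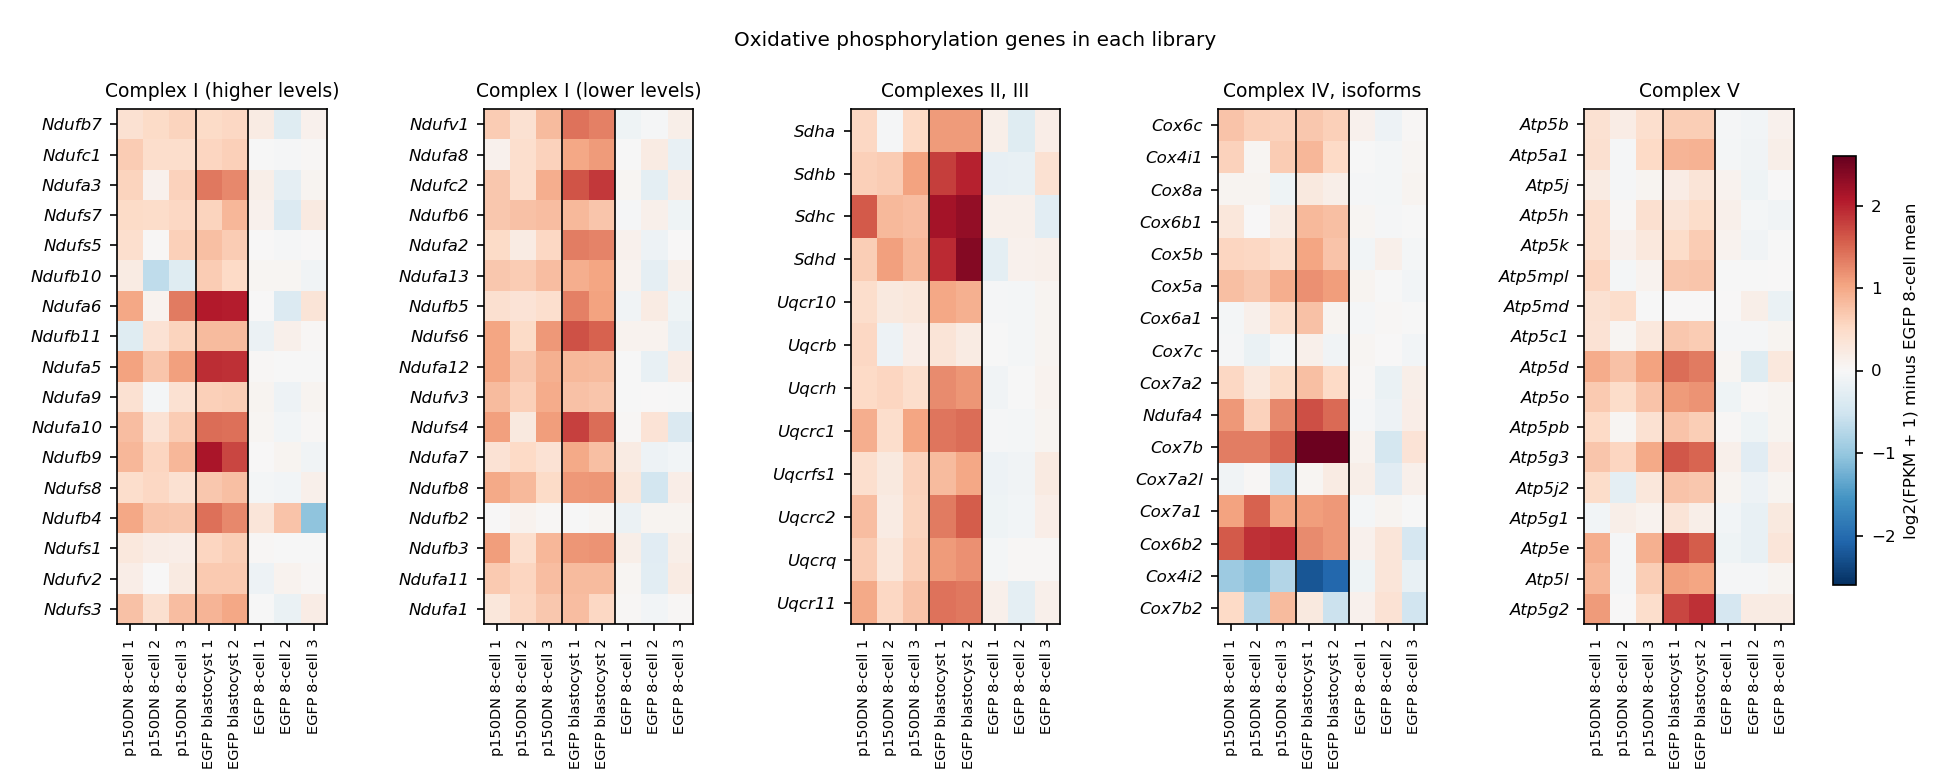
log2(FPKM + 1) minus the EGFP 8-cell mean, as colour, for structural genes and complex IV isoforms or partners above 1 FPKM (rows) in each library (columns: 3 p150DN 8-cell, 2 EGFP blastocyst, 3 EGFP 8-cell). Cox7b, Sdhc, Sdhd and Ndufa6 are among the deepest reds in blastocysts, Cox4i2 is blue in both p150DN 8-cell embryos and blastocysts, and Ndufb2, Cox7c and Atp5md stay near white.

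Complex I, NADH dehydrogenase, is the largest of the complexes. Its 7 nuclear core subunits, which hold the flavin and iron-sulfur centres of the peripheral arm, gave 5 rises in p150DN 8-cell embryos and 7 in blastocysts. Of its 28 accessory subunits, 16 rose in p150DN 8-cell embryos and 27 in blastocysts. Over all genes tested, 24.6% rose in p150DN 8-cell embryos and 42.6% in blastocysts.

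The accessory subunit Ndufa5 (chr6:24518662-24527690) had the largest p150DN change of complex I, with 50.8, 40.2 and 51.4 FPKM in p150DN 8-cell, 93.5 and 92.5 in blastocyst and 24.4, 23.8 and 23.9 in EGFP 8-cell libraries. Its 3 EGFP 8-cell libraries lay within 1 FPKM of each other and below all others. The log2 fold changes were 0.95 ± 0.14 in p150DN 8-cell embryos and 1.91 ± 0.10 in blastocysts (SE; limma adjusted p = 0.0016 and 2.28e-05). Ndufs6, an accessory subunit that carries zinc, had 25.3, 17.1 and 27.3 FPKM in p150DN 8-cell, 39.7 and 36.5 in blastocyst and 12.8, 12.7 and 10.3 in EGFP 8-cell libraries. Its p150DN replicate 2 was the lowest of that group, still above every EGFP 8-cell library.

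Some complex I accessory subunits had p150DN levels like those of blastocysts. Ndufa12 had 31.1, 24.5 and 28.9 FPKM in p150DN 8-cell, 27.1 and 26.6 in blastocyst and 14.6, 12.8 and 17 in EGFP 8-cell libraries. Its p150DN and blastocyst ranges overlapped, with a log2 difference of 0.06 ± 0.16 (SE), and both lay above EGFP 8-cell embryos. Ndufv3 and Ndufb6, singled out after their values were seen, had differences of 0.06 ± 0.16 and -0.03 ± 0.14 (SE) between p150DN 8-cell embryos and blastocysts.

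Other accessory subunits had larger changes in blastocysts than in p150DN 8-cell embryos. Ndufa6, a LYR-motif accessory subunit (chr15:82350139-82354291), had 47.9, 24.7 and 60.5 FPKM in p150DN 8-cell, 101 and 99.6 in blastocyst and 23.6, 18.1 and 29.6 in EGFP 8-cell libraries. Its p150DN libraries were widely spread and replicate 2 fell inside the EGFP 8-cell range, so its p150DN difference of 0.81 ± 0.31 (SE) was not called (limma adjusted p = 0.0702). The blastocyst rise was 2.06 ± 0.19 (SE; limma adjusted p = 0.000136). Ndufb9 and Ndufc2, both accessory, were lower in p150DN 8-cell embryos than in blastocysts by limma, with log2 fold changes of -1.17 ± 0.18 and -1.05 ± 0.18 (SE), calls that were lost without either blastocyst library. Over EGFP 8-cell embryos both were also higher in p150DN 8-cell embryos, by 0.76 ± 0.14 and 0.69 ± 0.18 (log2, SE; limma adjusted p = 0.00404 and 0.0194), calls that held under 15 and 9 of 15 alternatives.

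Ndufb2 was the 1 structural gene of complex I not called in blastocysts. It had 15.9, 17.1 and 16.2 FPKM in p150DN 8-cell, 15.7 and 16.6 in blastocyst and 14.3, 16.8 and 16.9 in EGFP 8-cell libraries, with overlap among all groups. The highest gene of complex I by mean level was Ndufb7, with 99.1 ± 6.37 FPKM in p150DN 8-cell embryos (SD, n = 3), 101 ± 2.93 in blastocysts (SD, n = 2) and 71.3 ± 13.4 in EGFP 8-cell embryos (SD, n = 3). The lowest was Ndufa1, an X-linked accessory subunit, with 11.2 ± 1.64, 12.6 ± 1.81 and 7.49 ± 0.322 FPKM in the same groups and order. Ndufb4 and its copy Ndufb4c, and Ndufa11 and its copy Ndufa11b, may share reads, and their split is uncertain. EGFP 8-cell replicate 3 had 10.02 FPKM of Ndufb4, against 27.1 and 36.7 in its replicates.

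In complex III, which hands electrons to cytochrome c, both core subunits rose in p150DN 8-cell embryos and in blastocysts. Uqcrc1 (chr9:108936648-108949641) had 91.5, 64.8 and 95.9 FPKM in p150DN 8-cell, 126 and 130.5 in blastocyst and 45.9, 45.5 and 49.5 in EGFP 8-cell libraries, without overlap. Its log2 fold changes were 0.81 ± 0.16 in p150DN 8-cell embryos and 1.43 ± 0.10 in blastocysts (SE; limma adjusted p = 0.00595 and 5.14e-05). Uqcrc2 had 48.5, 32 and 41.7 FPKM in p150DN 8-cell, 71.7 and 83.8 in blastocyst and 25.3, 26.1 and 31.2 in EGFP 8-cell libraries. Its p150DN libraries lay just above the EGFP 8-cell range, and that call was lost without p150DN replicate 1 or 3 and without EGFP 8-cell replicate 1 or 2. Median-of-ratios scaling, where the change was 0.25, quantile normalization and the fit with no filter lost it too, so it held under 8 of 15 alternatives.

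Among the accessory subunits, Uqcr11 and Uqcrq rose by 0.76 ± 0.17 and 0.53 ± 0.14 in p150DN 8-cell embryos and Uqcr11 and Uqcrh by 1.40 ± 0.15 and 1.19 ± 0.10 in blastocysts (log2, SE). The p150DN call of Uqcrq was lost without p150DN replicate 1 or 3, without EGFP 8-cell replicate 1 and with median-of-ratios scaling, where its change was 0.24. The Rieske iron-sulfur protein Uqcrfs1 rose by 0.91 ± 0.14 in blastocysts (SE; limma adjusted p = 0.00125). Uqcr10, the highest gene of the complex, had 137, 118 and 121 FPKM in p150DN 8-cell, 201 and 190.1 in blastocyst and 97, 96 and 105 in EGFP 8-cell libraries. Its 3 groups did not overlap, although the p150DN call held under 4 of 15 alternatives only.

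Complex IV, cytochrome c oxidase, held both the largest rise and the only falls. Cox7b, an X-linked subunit (chrX:106015700-106022450), had 25.6, 25.5 and 29.2 FPKM in p150DN 8-cell, 60.4 and 60.9 in blastocyst and 10.2, 6.72 and 12.5 in EGFP 8-cell libraries. The 3 groups stood apart, with p150DN embryos in the middle. Over EGFP 8-cell embryos it rose by 1.40 ± 0.21 in p150DN 8-cell embryos and by 2.55 ± 0.23 in blastocysts (log2, SE; limma adjusted p = 0.00178 and 0.000116). It was the lowest structural gene of complex IV by mean level and the one with the largest change in both comparisons.

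Cox6c, at the other end of the range (chr15:35931976-35938246), had 891, 815 and 808 FPKM in p150DN 8-cell, 868 and 816 in blastocyst and 575, 483 and 541 in EGFP 8-cell libraries. p150DN and blastocyst libraries overlapped and both lay above EGFP 8-cell embryos, with log2 fold changes of 0.65 ± 0.11 and 0.66 ± 0.11 (SE; limma adjusted p = 0.00343 and 0.00159). Ndufa4 rose by 0.99 ± 0.19 in p150DN 8-cell embryos and 1.57 ± 0.13 in blastocysts, and Cox5a, a subunit on the matrix side, by 0.81 ± 0.12 and 1.14 ± 0.11 (log2, SE). Cox8a, Cox7c and Cox6a1 were not called in either comparison. Cox7c had 76.6, 69 and 75.4 FPKM in p150DN 8-cell, 85.3 and 73.3 in blastocyst and 81.2, 78.8 and 73.6 in EGFP 8-cell libraries, all overlapping.

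The isoforms of complex IV moved in different directions. Cox4i2, an isoform of subunit IV known from lung and from oxygen-sensing cells, had 2.43, 2.11 and 2.9 FPKM in p150DN 8-cell, 0.426 and 0.612 in blastocyst and 5.15, 7.21 and 4.77 in EGFP 8-cell libraries. The groups did not overlap, with blastocysts lowest. Its lowest library held 6 fragments, and in comparisons with blastocysts it passed the filter only through the other group. The log2 fold change over EGFP 8-cell embryos was -0.94 ± 0.21 in p150DN 8-cell embryos and -2.13 ± 0.21 in blastocysts (SE; limma adjusted p = 0.00919 and 0.00016). Its widespread partner Cox4i1 had 206, 141 and 216 FPKM in p150DN 8-cell, 250.5 and 196 in blastocyst and 136, 132 and 141 in EGFP 8-cell libraries, and was called in blastocysts alone, with the p150DN difference at 0.43 ± 0.16 (SE).

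Cox6b2, known as the testis isoform of subunit VIb, had 9.23, 11.5 and 11.9 FPKM in p150DN 8-cell, 6.86 and 6.41 in blastocyst and 2.65, 3.21 and 1.51 in EGFP 8-cell libraries. p150DN 8-cell embryos were highest without overlap. Their log2 difference over blastocysts was 0.63 ± 0.18 (SE; limma adjusted p = 0.0414), a call that held under 5 of 14 alternatives only. It was lost with all 8 libraries in 1 fit, with the replicate block and with voom. Over EGFP 8-cell embryos Cox6b2 rose by 1.81 ± 0.23 in p150DN 8-cell embryos, the largest p150DN change of any member, and by 1.18 ± 0.24 in blastocysts (log2, SE; limma adjusted p = 0.000881 and 0.00433). The blastocyst call was lost without blastocyst replicate 1 (limma adjusted p = 0.0535). Cox6b1 had 121, 99.3 and 115 FPKM in p150DN 8-cell, 178 and 169.6 in blastocyst and 103, 96 and 97.7 in EGFP 8-cell libraries, with p150DN embryos overlapping the EGFP 8-cell range.

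Cox7a1, known as the heart and muscle isoform of subunit VIIa, had 13, 18.4 and 12.5 FPKM in p150DN 8-cell, 13.4 and 13.7 in blastocyst and 5.51, 6.08 and 5.65 in EGFP 8-cell libraries. It rose by 1.196 ± 0.18 and 1.11 ± 0.14 over EGFP 8-cell embryos in p150DN 8-cell embryos and blastocysts (log2, SE), and p150DN replicate 2 was the highest library. Cox7a2, the widespread isoform, rose by 0.43 ± 0.14 and 0.66 ± 0.14, and the p150DN call was lost without p150DN replicate 1 or 3 and without EGFP 8-cell replicate 1 or 2. Median-of-ratios scaling, where the change was 0.15, voom and the fit with no filter lost it too. The blastocyst call of Cox7a2 was lost without blastocyst replicate 1, where its change was 0.53. The supercomplex factor Cox7a2l was called in no comparison, with 29.7, 32.4 and 21.9 FPKM in p150DN 8-cell, 33 and 37 in blastocyst and 35.5, 25.8 and 35.2 in EGFP 8-cell libraries. Cox7b2 was not called either and stayed below 5 FPKM in every library. Cox6a2 and Cox8b, muscle isoforms, and Ndufa4l2 stayed below 0.5 FPKM, and Cox8c reached 1.18 FPKM at most.

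**Figure D5:**
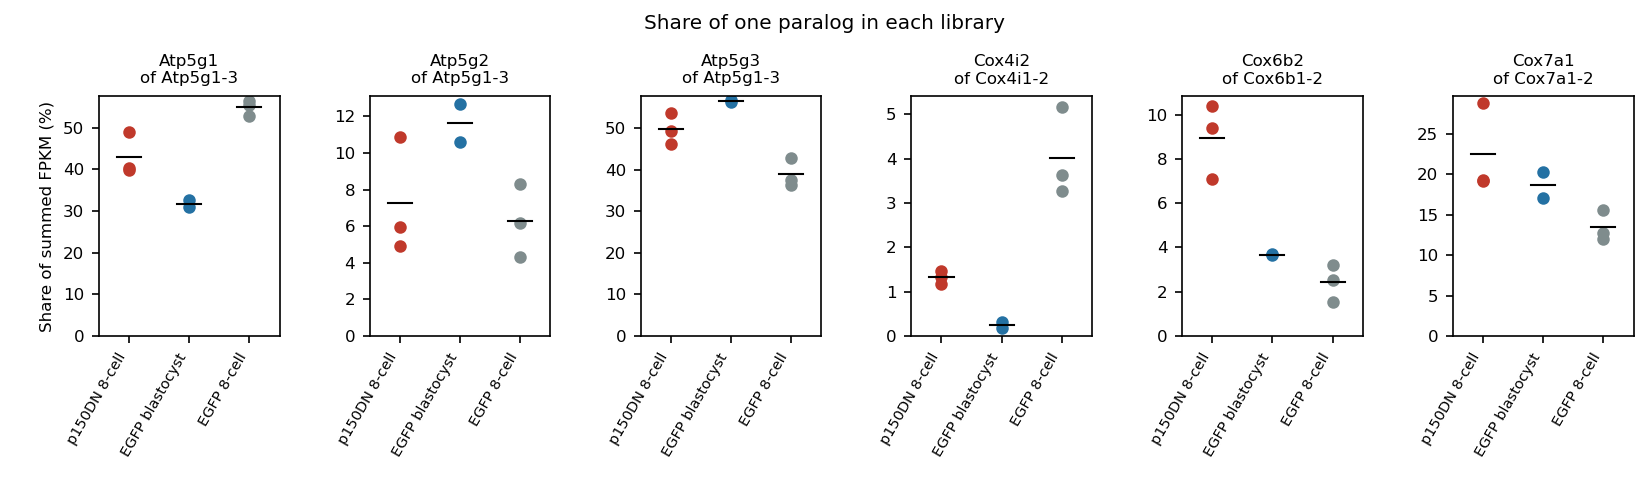
Share of 1 paralog in the summed FPKM of its set (y axis, percent, from 0) in each library of p150DN 8-cell embryos, EGFP blastocysts and EGFP 8-cell embryos; lines are group means. Atp5g1 and Cox4i2 take their highest shares in EGFP 8-cell libraries, Atp5g3 in blastocysts and Cox6b2 in p150DN 8-cell libraries.

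The share of a paralog in its set does not depend on the scaling of the library. Cox4i2 made up 1.32 ± 0.155% of Cox4i FPKM in p150DN 8-cell embryos (SD, n = 3), 0.24 ± 0.0997% in blastocysts (SD, n = 2) and 4.02 ± 1.01% in EGFP 8-cell embryos (SD, n = 3). Cox6b2 made up 8.96 ± 1.70%, 3.67 ± 0.0423% and 2.42 ± 0.858% of Cox6b FPKM in the same order of groups. Cox7a1 made up 22.4 ± 5.52%, 18.7 ± 2.21% and 13.4 ± 1.92% of Cox7a1 and Cox7a2 FPKM. None of these shares overlapped between p150DN and EGFP 8-cell libraries. Over 6 shares and 3 comparisons, 18 two-sided exact permutation tests were made, and the lowest p the design allows was 0.1 for 3 libraries against 3 and 0.2 for 2 against 3, so none could pass (adjusted exact p of 0.24 at best).

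Complex V, the ATP synthase, has a catalytic F1 head, a peripheral stalk and a membrane part with a ring of c subunits. Of its 5 F1 subunits, 2 rose in p150DN 8-cell embryos and 5 in blastocysts, while of 5 small membrane subunits 0 rose in p150DN 8-cell embryos by limma (1 at an unadjusted p below 0.05) and 4 in blastocysts. Of its 3 c subunit genes, 1 rose in p150DN 8-cell embryos and 2 in blastocysts, and of its 4 peripheral stalk genes 1 and 3 rose. Over all genes tested, 24.6% rose in p150DN 8-cell embryos and 42.6% in blastocysts, and these parts hold only 3 to 5 genes each. Differences between these parts were not tested. Atp5d, the delta subunit of the F1 stalk (chr10:80138698-80145828), had 117, 101 and 124 FPKM in p150DN 8-cell, 164 and 154 in blastocyst and 61.2, 47.5 and 71.4 in EGFP 8-cell libraries, without overlap. It rose by 0.92 ± 0.16 in p150DN 8-cell embryos and 1.40 ± 0.17 in blastocysts (log2, SE; limma adjusted p = 0.00359 and 0.000402). Atp5b had 366, 318 and 372 FPKM in p150DN 8-cell, 431 and 432 in blastocyst and 269, 263 and 298 in EGFP 8-cell libraries.

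Atp5a1, the alpha subunit, was lower in p150DN 8-cell embryos than in blastocysts, by -0.59 ± 0.18 (log2, SE; limma adjusted p = 0.048), a call lost without p150DN replicate 1 or either blastocyst library. That call was also lost with median-of-ratios scaling, with quantile normalization and with no filter on low values. The p150DN rise of Atp5b, 0.34 ± 0.12 (SE; limma adjusted p = 0.0462), was lost in 5 of the 6 runs without 1 library and with median-of-ratios scaling. Atp5o, the peripheral-stalk subunit that confers oligomycin sensitivity, rose by 0.63 ± 0.12 in p150DN 8-cell embryos and 1.14 ± 0.10 in blastocysts (log2, SE), and its p150DN call was lost with median-of-ratios scaling. Atp5e, the epsilon subunit, had 49.3, 24.7 and 48.7 FPKM in p150DN 8-cell, 89.3 and 77.5 in blastocyst and 23.3, 21.9 and 31.7 in EGFP 8-cell libraries. p150DN replicate 2 fell within the EGFP 8-cell range, and the p150DN difference of 0.61 ± 0.27 was not called (limma adjusted p = 0.108). Its blastocyst rise was 1.68 ± 0.18 (SE; limma adjusted p = 0.000212).

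The 3 Atp5g genes encode the same mature c subunit of the proton-turning ring, with different import sequences, and their balance differed between the groups. Atp5g1 had 53.7, 63 and 60.1 FPKM in p150DN 8-cell, 71.6 and 63.1 in blastocyst and 53.6, 49.3 and 67.7 in EGFP 8-cell libraries, and was called in neither comparison with EGFP 8-cell embryos. Atp5g3 (chr2:73908447-73912464) had 66.6, 59.5 and 80.6 FPKM in p150DN 8-cell, 125 and 115 in blastocyst and 43.6, 32.3 and 45.2 in EGFP 8-cell libraries, without overlap. It rose by 0.76 ± 0.17 in p150DN 8-cell embryos and 1.56 ± 0.16 in blastocysts (log2, SE; limma adjusted p = 0.00964 and 0.000199). Atp5g2 (chr15:102662868-102671047) had 14.7, 6.32 and 8.95 FPKM in p150DN 8-cell, 23.3 and 26 in blastocyst and 4.38, 7.41 and 7.43 in EGFP 8-cell libraries, with a p150DN difference of 0.53 ± 0.30 that was not called and a blastocyst rise of 1.82 ± 0.23 (SE; limma adjusted p = 0.000437).

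As a share of the summed FPKM of the 3 genes, Atp5g1 stood at 42.9 ± 5.16% in p150DN 8-cell embryos (SD, n = 3), 31.7 ± 1.18% in blastocysts (SD, n = 2) and 54.8 ± 1.81% in EGFP 8-cell embryos (SD, n = 3). Atp5g3 stood at 49.8 ± 3.85%, 56.6 ± 0.318% and 38.9 ± 3.52% in the same order. No libraries of different groups overlapped in either share. Atp5g2 stood at 7.26 ± 3.2%, 11.7 ± 1.49% and 6.27 ± 2.01% in the same order, and its p150DN libraries overlapped both other groups. The 3 shares add up to the whole, so they are not independent of each other. Atp5g1 was thus the most abundant of the 3 in EGFP 8-cell libraries and Atp5g3 in the other 2 groups, with the exception of p150DN replicate 2, where Atp5g1 stood at 48.9% and Atp5g3 at 46.2%.

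Replicates of p150DN embryos were unequal for these genes. Replicate 2 was the lowest p150DN library in 56 of 82 members tested and the highest in 10. Its median log2 ratio to the EGFP 8-cell mean over the structural genes was 0.37, against 0.57 and 0.60 in replicates 1 and 3. Of 10 tested markers of the trophectoderm, the outer lineage of the blastocyst, 8 were higher and 1 (Tead4) was lower than in EGFP 8-cell embryos, both in p150DN 8-cell embryos and in blastocysts. These were 80% and 10%, against 24.6% and 9.68% of all genes in p150DN 8-cell embryos and 42.6% and 24.9% in blastocysts. The summed level of the listed markers was 539.1, 550.3 and 814.2 FPKM in p150DN 8-cell libraries, 1509 and 1520 in blastocyst libraries and 286.5, 268.7 and 276.6 in EGFP 8-cell libraries. Of the 11 listed, Elf5 was at 0 in all 3 EGFP 8-cell libraries, and Cdx2, a defining factor, was at 25.4, 17 and 36.9 FPKM in p150DN 8-cell, 109.5 and 121 in blastocyst and 4.21, 2.79 and 2.17 in EGFP 8-cell libraries. Tead4, a factor upstream of Cdx2, was at 59, 52.9 and 69.1 FPKM in p150DN 8-cell, 53.3 and 57.4 in blastocyst and 151, 144 and 138 in EGFP 8-cell libraries. p150DN replicate 2, lowest for most members, had a marker sum close to that of replicate 1 and the lowest Cdx2 and Tead4 of its group. The part of these markers in the member results was not tested.

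Of 8 pluripotency markers, 4 rose (50%, against 24.6% of all genes) and 1 fell (12.5%, against 9.68%) in p150DN 8-cell embryos. In blastocysts 3 rose (37.5%, against 42.6%) and 2 fell (25%, against 24.9%). Of 10 oocyte transcripts, 4 were lower in p150DN 8-cell embryos (40%, against 9.68%) and 10 in blastocysts (100%, against 24.9%). p150DN replicate 2 had the lowest pluripotency sum of its group (553.7 FPKM, against 776.6 and 702.4) and the highest oocyte sum (95.96, against 41.43 and 76.96). The part of these in the member results was not tested either. Markers of cumulus and granulosa cells summed to 0.455 to 2.23 FPKM in any library, with 9 of 9 below the filter. Genes above 0 FPKM numbered 18412, 20465 and 21282 in p150DN 8-cell libraries, 18991 and 18547 in blastocyst libraries and 17310, 17477 and 18402 in EGFP 8-cell libraries. Leaving out p150DN replicates 2 and 3, whose counts were the highest, gave 30 members higher and 0 lower over EGFP 8-cell embryos by limma (56 and 1 at an unadjusted p below 0.05), with a member median of 0.58 and a median of all genes of 0.14. That fit has 1 p150DN library, so its spread comes from the EGFP 8-cell libraries alone and the lone library is assumed to vary like them.

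The assembly factors, which build the complexes but stay out of them, gave calls in both directions. Of 55, 16 rose (29.1%) and 4 fell (7.27%) in p150DN 8-cell embryos over EGFP 8-cell embryos, close to the 24.6% and 9.68% of all genes. In blastocysts 34 rose (61.8%) and 9 fell (16.4%), against 42.6% and 24.9% of all genes. Complex II factors rose in 3 of 4 and 4 of 4 cases, and complex IV factors gave 9 rises of 25 in p150DN 8-cell embryos and 19 rises and 2 falls in blastocysts, while complex I factors gave 3 rises and 2 falls of 16 in p150DN 8-cell embryos and 8 rises and 4 falls in blastocysts. Complex III factors gave 1 rise and 1 fall of 6 in p150DN 8-cell embryos and 1 rise and 2 falls in blastocysts, and complex V factors 1 fall of 4 in p150DN 8-cell embryos and 2 rises and 1 fall in blastocysts. Acad9, a complex I factor, rose by 1.09 ± 0.14 and 2.34 ± 0.14 in p150DN 8-cell embryos and blastocysts (log2, SE). Ecsit, another complex I factor, fell, with 14.2, 17 and 15.9 FPKM in p150DN 8-cell, 12.7 and 14.8 in blastocyst and 36.1, 41.8 and 29.2 in EGFP 8-cell libraries. In complex III, Uqcc2 rose by 1.23 ± 0.17 and 1.53 ± 0.20, and Uqcc3 had log2 fold changes of -1.199 ± 0.22 and -1.74 ± 0.14 (SE), both called as falls by limma.

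Of the 11 carriers and partners of the chain, 7 rose in p150DN 8-cell embryos (63.6%, against 24.6% of all genes) and 10 in blastocysts (90.9%, against 42.6%), and none fell. Etfb, which passes electrons from fatty acid oxidation, had 77.1, 49.1 and 62.3 FPKM in p150DN 8-cell, 134 and 147 in blastocyst and 17.7, 23.8 and 22.6 in EGFP 8-cell libraries. Its groups did not overlap. The ATP and ADP carrier Slc25a5 rose by 1.22 ± 0.16 and 2.24 ± 0.13 in p150DN 8-cell embryos and blastocysts (log2, SE), and Atpif1, the inhibitor of the ATP synthase, by 1.10 ± 0.12 and 1.45 ± 0.11. The phosphate carrier Slc25a3 was not called, with differences of -0.07 ± 0.13 and -0.20 ± 0.14. Of 13 coenzyme Q synthesis genes, 1 rose (7.69%, against 24.6% of all genes) and 1 fell (7.69%, against 9.68%) in p150DN 8-cell embryos. For blastocysts, 6 of them rose (46.2%, against 42.6%) and 2 fell (15.4%, against 24.9%). Of 78 mitochondrial ribosomal protein genes, 17 rose (21.8%, near the 24.6% of all genes) and 4 fell (5.13%, against 9.68%) in p150DN 8-cell embryos. In blastocysts 54 rose (69.2%, against 42.6% of all genes) and 6 fell (7.69%, against 24.9%). None of 28 mitochondrially encoded symbols was found in the table, and the mitochondrial subunits were not analysed here.

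Regulators of mitochondrial biogenesis gave more falls than rises. Of 17 tested, 2 rose (11.8%, against 24.6% of all genes) and 5 fell (29.4%, against 9.68%) in p150DN 8-cell embryos. In blastocysts 5 rose (29.4%, against 42.6%) and 10 fell (58.8%, against 24.9%), with median log2 fold changes of -0.23 and -0.93. Nrf1, whose motif letters are shown above, had 13.1, 13.4 and 12.7 FPKM in p150DN 8-cell, 7.91 and 8.43 in blastocyst and 17.5, 18.2 and 19.5 in EGFP 8-cell libraries. The groups did not overlap, with log2 fold changes of -0.47 ± 0.13 and -1.08 ± 0.13 (SE; limma adjusted p = 0.0266 and 0.000389). Pprc1, a coactivator of NRF1, had 70.6, 88.4 and 66.5 FPKM in p150DN 8-cell, 66.8 and 64.5 in blastocyst and 151, 120.4 and 143 in EGFP 8-cell libraries. Polrmt, the mitochondrial RNA polymerase, changed by -0.78 ± 0.14 and -1.68 ± 0.19 (SE), and both were called as falls by limma. Ppargc1b, another coactivator, had 1.23, 1.72 and 2.82 FPKM in p150DN 8-cell, 6.59 and 6.56 in blastocyst and 0.323, 0.19 and 0.234 in EGFP 8-cell libraries. It was called as a rise in both groups. With every EGFP 8-cell library below 1 FPKM, it passed the filter only through the groups where it was high, so these rises carry no weight. Tfam, which packages mitochondrial DNA, rose in blastocysts by 0.99 ± 0.13 and was not called in p150DN 8-cell embryos, at 0.37 ± 0.17 (log2, SE).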

How the data were processed

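The authors deposited FPKM values per gene symbol in 1 table with 1 column per library, per the file headers. Per the labels, total RNA was made into libraries with a SMART-seq stranded kit. HISAT2, featureCounts and mm10 are named in the submitters' processing notes. Neither the gene annotation nor the strand setting is given in the labels, so overlapping and antisense genes are uncertain. Columns named 8C were taken as EGFP 8-cell libraries, the only 8-cell RNA group in the labels without p150DN.

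Whole fragments were recovered from the FPKM steps for 23312 of 23316 genes (tolerance 0.02 fragments), which gave 16578221 to 22488477 fragments per library. A 1-kb gene at 1 FPKM thus rests on 16.6 to 22.5 fragments, and member transcripts had a median length of 728 bases. limma 3.58.1 in R 4.3.3 (trend, two-sided) was fitted on log2(FPKM + 1) with the libraries of the 2 groups only, and tested on simulated data. Members, roles, gene lists and alternatives were chosen with earlier results of these data known. Genes were named by rule: all 4 subunits of complex II, up to 4 called members per other complex with the largest change at a mean of at least 5 FPKM, members called against their complex, paralog sets, and the highest and lowest subunit. The values of 1 member are not reported here, though it is in all counts. From the other lists, the called genes of largest change were named, up to 3 per list. Ndufv3, Ndufb6, Ndufb2, Ndufb4, Ndufa11b, Cox7c, Uqcrfs1, Nrf1, Tfam, Cdx2, Elf5, Tead4 and Slc25a3 were named after their values were seen. Coordinates and promoters came from RefSeq on GRCm38.p6 (the mm10 assembly), where all 86 members were found by symbol. The other 65 of the 73 samples in the series were not used here.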

Additional observations from a re-analysis of the deposited data

How the results depend on the processing

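For p150DN over EGFP 8-cell embryos, 44 members higher became 15 and the median of 0.51 became 0.2214 with median-of-ratios scaling, and leaving out 1 library gave 28 to 51 higher and 1 to 2 lower. The single fall (Cox4i2) was 0 with a filter at 5 FPKM, which removed the gene, and 0 without p150DN libraries 2 and 3, where its change of -0.95 was as large and the p150DN arm had 1 library. For EGFP blastocysts over EGFP 8-cell embryos, the median of 0.91 was 0.6871 with median-of-ratios scaling, 0.8073 with quantile normalization and 0.8691 to 0.949 with 1 library left out, and 63 to 72 members were higher. For p150DN 8-cell embryos over EGFP blastocysts, 2 members higher became 1 with no filter, a 5 FPKM filter, all 8 libraries in one fit, the replicate block, without p150DN libraries 2 and 3, or with voom, and 0 to 2 with 1 library left out. The 34 lower became 17 with no filter, 11 without p150DN libraries 2 and 3, and 0 to 33 with 1 library left out. Without p150DN libraries 2 and 3 the median there was -0.3463. The cause of these changes was not tested, other than the removed gene. Of the calls, 13 of 45, 62 of 72 and 0 of 36 held in every alternative of the 3 comparisons in this order. The alternative that left out p150DN libraries 2 and 3 and voom were chosen after seeing the data. No named call changed sign. The assembly factors and the other lists were not refitted under the alternatives.

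Same-numbered libraries deviated from their group means with correlations of 0.062, 0.099 and 0.035 for p150DN and EGFP 8-cell, -0.032 and -0.024 for blastocyst and EGFP 8-cell, and -0.065 and -0.061 for p150DN and blastocyst libraries, so the numbers were not taken to pair them. With the replicate block, 45 members rose and 1 fell for p150DN over EGFP 8-cell, 70 rose and 1 fell for blastocyst over EGFP 8-cell, and 1 was higher and 31 lower for p150DN over blastocyst. Depth limits the low isoforms: Cox6a2, Cox8b, Cox8c and Ndufa4l2 were too low to test.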
